A study of Homo sapiens with 9 samples.

Results

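The genes described here are 8 transcription factors that build and maintain gut, liver and pancreas epithelium: HNF4A, CDX2, GATA4, GATA6, FOXA1, FOXA2, FOXA3 and KLF5. They were taken by symbol from a table of read counts with 42717 genes, and all 8 were found and passed the filter on low counts in every comparison. RNA was sequenced from 3 human cell lines, S2-007, S2-020 and S2-028, with 3 libraries each and 9 in all. The lines are sublines of SUIT-2, an established line of human pancreatic ductal adenocarcinoma. The study set S2-007 against S2-028 because they hold the serpin maspin in different compartments of the cell, and the libraries of S2-020 were deposited beside them. All 3 were grown alike in DMEM with fetal bovine serum, and the labels name no treatment, engineered allele or batch. Each line stands for itself, so a difference between lines is a difference between single sublines, and maspin cannot be told apart from any other property in which they differ. Nothing states that the libraries of a line came from separate cultures, so the p-values measure the spread between these libraries, which may be technical.

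Lineage transcription factors set which genes an epithelium can use. FOXA proteins and GATA factors bind closed chromatin in early foregut endoderm and open it for later factors. HNF4A is a nuclear receptor that drives enterocyte, hepatocyte and pancreatic programs, CDX2 is the homeobox factor of the intestine, and KLF5 is a Krüppel-like factor of proliferating gut epithelium, often abundant in pancreatic cancer. In pancreatic tumors, HNF4A, GATA6 and the FOXA genes are known for their link to the well differentiated, classical type.

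HNF4A was high in S2-007 and fell about alike in the other lines, 9.13-fold in S2-028 and 8.31-fold in S2-020. The FOXA genes were lowest in S2-020, and FOXA2 and FOXA3 were highest in S2-028, where FOXA3 was 24.6-fold above S2-020. GATA4 and GATA6 were highest in S2-020, and KLF5 and CDX2 were highest in S2-007. Calls required an adjusted p under 0.05 (edgeR's quasi-likelihood test, Benjamini-Hochberg over all genes tested) together with a change of 0.585 or more on the log2 scale (1.5-fold) in either direction. Between S2-028 and S2-007, 5 of 8 members were called, 2 higher and 3 lower, where 18.4% of 26371 genes were called (10.2% higher, 8.19% lower). Between S2-020 and S2-007, 6 of 8 were called, all lower, where 21.6% of 26657 genes were called (9.57% higher, 12.1% lower). Between S2-028 and S2-020, 6 of 8 were called, 3 higher and 3 lower, where 22.2% of 26031 genes were called (12.1% higher, 10.1% lower). The median log2 fold change of the members was -0.42, -1.03 and -0.32 in these comparisons, against 0.00, -0.05 and 0.02 over all genes. Every pair of comparisons shares the libraries of a line, so they are not independent of each other. The members were chosen with earlier results of these data known, so their counts are not a test of the group. In bulk RNA, fewer cells that express a gene and less of its RNA per cell cannot be told apart.

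**Figure D1:**
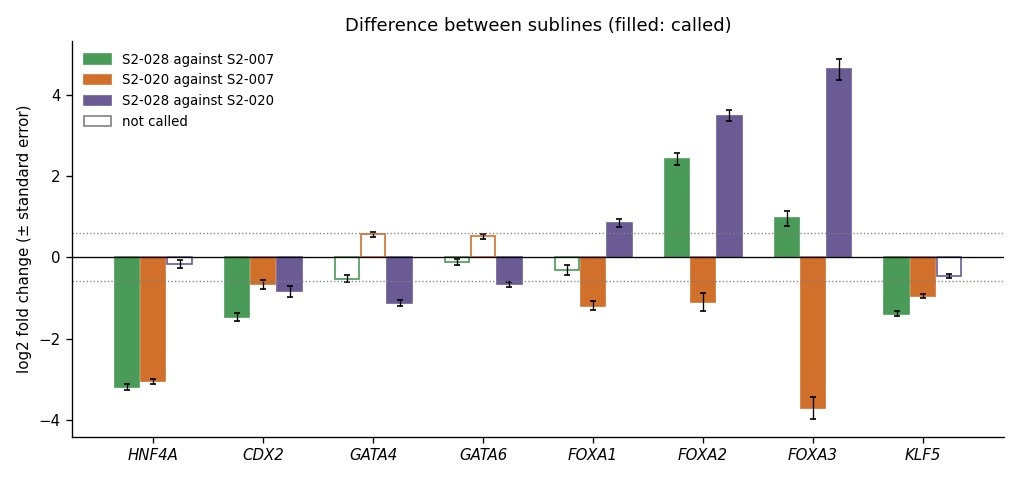
Log2 fold change (y axis, with standard error bars) of each of the 8 transcription factors in the 3 comparisons of sublines; filled bars were called, open bars were not, and dotted lines mark 0.585 either way. HNF4A lies at -3.19 and -3.05 against S2-007, and the longest upward bar is FOXA3 at 4.62 in S2-028 against S2-020.

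Promoter sequences are shown for HNF4A and FOXA3, which are among the members with the largest differences, and for CDX2, whose upstream bases held matches to motifs of other members. They are the 250 bases before a RefSeq start on GRCh38.p14, read along the gene's strand, with motif matches in capitals. HNF4A has a distal start at the beginning of the gene and a proximal start inside it, known to be used in different tissues, and the gene-level counts do not separate them. The distal region is chr20:44355449-44355698 and the proximal one chr20:44400989-44401238, both on the plus strand. The CDX2 region is chr13:27969316-27969565 on the minus strand and that of FOXA3 is chr19:45864076-45864325 on the plus strand.
HNF4A distal: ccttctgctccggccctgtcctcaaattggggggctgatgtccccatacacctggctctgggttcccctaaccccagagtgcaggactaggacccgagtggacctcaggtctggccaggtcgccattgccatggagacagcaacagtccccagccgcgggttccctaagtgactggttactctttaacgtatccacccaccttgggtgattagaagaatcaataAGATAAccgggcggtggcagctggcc
HNF4A proximal: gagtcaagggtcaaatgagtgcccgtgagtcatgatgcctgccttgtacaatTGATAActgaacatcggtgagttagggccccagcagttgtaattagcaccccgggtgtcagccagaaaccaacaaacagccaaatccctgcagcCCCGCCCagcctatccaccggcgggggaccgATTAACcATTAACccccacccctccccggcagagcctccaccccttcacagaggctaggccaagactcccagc
CDX2: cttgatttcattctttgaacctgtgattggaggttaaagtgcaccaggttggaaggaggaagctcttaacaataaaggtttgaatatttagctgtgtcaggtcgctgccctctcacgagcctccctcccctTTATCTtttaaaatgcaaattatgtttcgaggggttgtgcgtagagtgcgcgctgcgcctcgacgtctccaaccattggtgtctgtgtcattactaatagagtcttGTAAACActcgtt
FOXA3: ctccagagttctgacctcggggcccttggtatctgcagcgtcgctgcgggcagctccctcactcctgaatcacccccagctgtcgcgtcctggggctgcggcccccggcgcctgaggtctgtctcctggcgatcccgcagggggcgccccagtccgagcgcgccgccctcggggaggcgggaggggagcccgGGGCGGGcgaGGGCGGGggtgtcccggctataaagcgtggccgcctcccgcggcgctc

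Both strands were searched. The half-site of HNF1 factors was spelled GTTAAT. The GATA motif was spelled AGATAA, with TGATAA as its other accepted form. The forkhead motif was spelled TGTTTAC, and the CDX motif was spelled TTTATG. The GC box, bound by SP and Krüppel-like factors, was spelled GGGCGGG, and the HNF4 motif was spelled CAAAGTCCA. A match on the opposite strand appears above as its reverse complement, and no matches overlapped. In the distal HNF4A region, a GATA match began 26 bases before the start. The proximal HNF4A region held a GATA match 198 bases before the start, a GC box on the opposite strand at 104, and a pair of HNF1 half-sites on the opposite strand at 73 and 66. CDX2 held a GATA match at 119 and a forkhead match at 13, both on the opposite strand, and FOXA3 held GC boxes at 58 and 48. Over 35116 promoter windows of the same length, 6.23% held the HNF1 half-site, 14.6% a GATA match, 2.98% the forkhead letters, 9.64% the CDX letters, 31.5% the GC box and 0.325% the HNF4 letters. A match describes these letters and does not show that a factor binds there. Promoters of the other members are not shown. Of these, the GATA6 region and the first KLF5 region held no match. The FOXA1 region held a GC box at 164, and the second KLF5 region a GC box on the opposite strand at 49. Matches for GATA4 and FOXA2 are not reported.

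HNF4A (gene ID 3172, chr20:44355699-44434596, plus strand) had 224.7, 224.2 and 238.9 TMM-normalized CPM (reads of the gene scaled to library size) in the 3 S2-007 libraries. It had 30.4, 27.8 and 26.4 CPM in S2-020 and 27.1, 26.1 and 21.8 CPM in S2-028. All 3 S2-007 libraries lay far above the other 6, while the libraries of S2-020 and S2-028 overlapped. The log2 fold change was -3.19 ± 0.0773 (SE) in S2-028 against S2-007 (edgeR, adjusted p = 7.99e-18) and -3.05 ± 0.0620 in S2-020 against S2-007 (edgeR, adjusted p = 1.85e-18). Between S2-028 and S2-020 it was -0.17 ± 0.0915 (edgeR, adjusted p = 0.163), which was not called. HNF4A still had at least 1332 reads in each library of the lower lines, so it was reduced there and not absent. HNF4A-AS1, the antisense RNA at the same locus, was also lower in both lines than in S2-007, by log2 fold changes of -1.002 in S2-028 and -1.271 in S2-020, at mean levels of 2.54 CPM in S2-007, 1.08 in S2-020 and 1.27 in S2-028.

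CDX2 (gene ID 1045, chr13:27960918-27969315, minus strand) stepped down across the lines. It had 27.3, 25.6 and 26.9 CPM in S2-007, 19.5, 17.9 and 13.9 CPM in S2-020, and 8.59, 10.9 and 9.25 CPM in S2-028. No library of any line fell in the range of another line. The log2 fold change was -1.47 ± 0.103 in S2-028 against S2-007 (edgeR, adjusted p = 1.81e-10), and -0.84 ± 0.128 in S2-028 against S2-020 (edgeR, adjusted p = 2.12e-05). It was -0.67 ± 0.102 in S2-020 against S2-007 (edgeR, adjusted p = 1.87e-05), a call that rested on the third S2-020 library, since without it the log2 fold change was -0.54, short of the fold threshold. PDX1, the homeobox factor of the pancreas that lies 42.0 kb from CDX2 on chromosome 13, was likewise lower in both lines, at 29.7 ± 1.57 CPM (SD, n = 3) in S2-007, 11.6 ± 0.668 in S2-020 and 11.5 ± 1.55 in S2-028.

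The zinc-finger factors GATA4 and GATA6 were highest in S2-020. GATA4 (gene ID 2626, chr8:11676935-11760002, plus strand) had 36.0, 32.7 and 32.0 CPM in S2-007, 54.2, 50.1 and 47.5 CPM in S2-020, and 21.1, 24.4 and 24.3 CPM in S2-028. GATA6 (gene ID 2627, chr18:22169589-22202528, plus strand) had 38.9, 35.1 and 39.5 CPM in S2-007, 55.7, 54.6 and 55.7 CPM in S2-020, and 36.5, 31.7 and 36.1 CPM in S2-028. For GATA4 the 3 lines did not overlap, whereas for GATA6 the S2-020 libraries stood above all others and those of S2-007 and S2-028 overlapped. GATA4 fell by 1.119 ± 0.0799 on the log2 scale in S2-028 against S2-020 (edgeR, adjusted p = 7.43e-10), and GATA6 fell by 0.67 ± 0.0705 (edgeR, adjusted p = 1.82e-07). Against S2-007, S2-020 differed by 0.56 ± 0.0723 for GATA4 (edgeR, adjusted p = 2.30e-06) and 0.52 ± 0.0635 for GATA6 (edgeR, adjusted p = 1.16e-06), both under the fold threshold. The GATA4 value lay so near the threshold that scaling by DESeq2's size factors moved it to 0.59 and over it. Between S2-028 and S2-007, the log2 fold change was -0.53 ± 0.0865 for GATA4 (edgeR, adjusted p = 4.31e-05) and -0.12 ± 0.0809 for GATA6 (edgeR, adjusted p = 0.308), and neither was called. Genes on the opposite strand, GATA6-AS1 among them, cover 10.9% of the exon bases of GATA6, and the sources used here do not state whether counting used strand. The mean level of GATA6-AS1 was 1.30 CPM in S2-007, 0.461 in S2-020 and 0.530 in S2-028, small beside that of GATA6. Of the 31-base words of GATA6, 10.2% also occur in other genes, the largest share of any member.

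**Figure D2:**
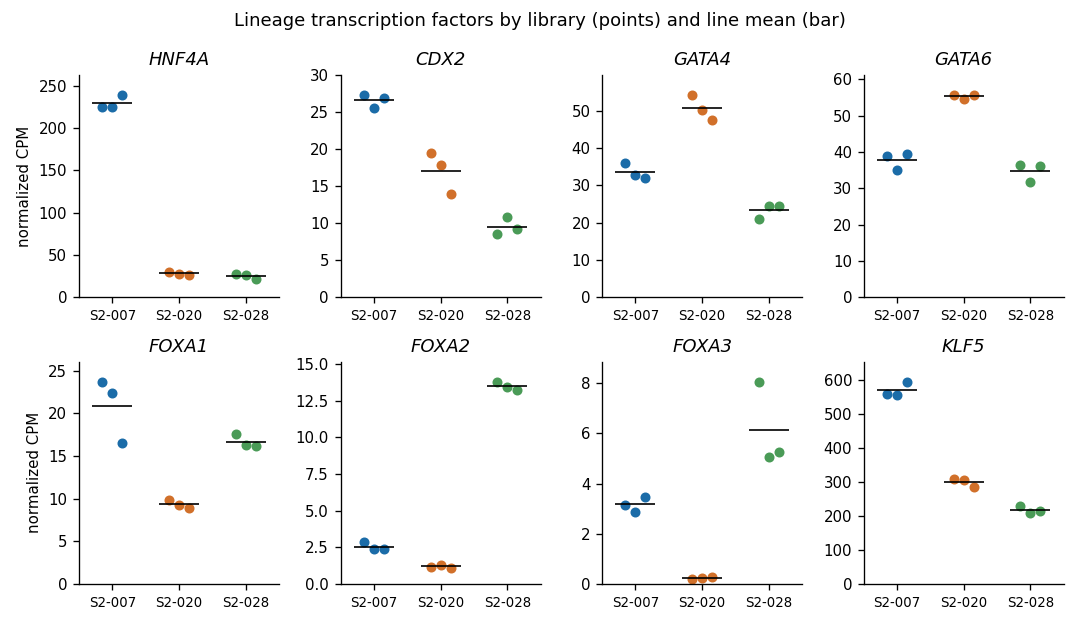
Normalized CPM (y axis, linear from 0, scaled per gene) of each transcription factor in the 9 libraries (points) by subline, with the line mean as a bar. HNF4A is near 229 CPM in S2-007 and at most 30.4 CPM in every other library, GATA4 and GATA6 peak in S2-020, and FOXA2 peaks in S2-028 at 13.3 to 13.8 CPM.

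The forkhead genes FOXA1, FOXA2 and FOXA3 were all lower in S2-020 than in either other line, but differed in how S2-028 compared with S2-007. FOXA1 (gene ID 3169, chr14:37589552-37595249, minus strand) had 23.7, 22.4 and 16.5 CPM in S2-007, 9.89, 9.31 and 8.91 CPM in S2-020, and 17.5, 16.4 and 16.2 CPM in S2-028. The third S2-007 library fell within the range of S2-028, so these lines overlapped, while S2-020 lay below both. FOXA1 fell by 1.19 ± 0.121 on the log2 scale in S2-020 against S2-007 (edgeR, adjusted p = 9.46e-08) and was 0.84 ± 0.102 higher in S2-028 than in S2-020 (edgeR, adjusted p = 1.30e-06). Its log2 fold change in S2-028 against S2-007 was -0.32 ± 0.119 (edgeR, adjusted p = 0.0433), below the fold threshold.

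FOXA2 (gene ID 3170, chr20:22580998-22585490, minus strand) had 2.86, 2.38 and 2.38 CPM in S2-007, 1.20, 1.32 and 1.09 CPM in S2-020, and 13.8, 13.5 and 13.3 CPM in S2-028. The lines did not overlap, and the 3 S2-028 libraries differed by less than 1 CPM. FOXA2 was 5.32-fold higher in S2-028 than in S2-007, a log2 fold change of 2.41 ± 0.140 (edgeR, adjusted p = 1.02e-11), and 11.2-fold higher than in S2-020 (3.49 ± 0.146, edgeR, adjusted p = 2.35e-13). It fell by 1.11 ± 0.221 on the log2 scale in S2-020 against S2-007 (edgeR, adjusted p = 0.000358). LINC00261, the long noncoding RNA next to FOXA2, was not called in any comparison. FOXA1 and FOXA2 share some sequence, with 1.84% of the 31-base words of FOXA1 found in FOXA2 and 2.55% of those of FOXA2 found in FOXA1.

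FOXA3 (gene ID 3171, chr19:45864326-45873797, plus strand) had 3.17, 2.88 and 3.48 CPM in S2-007 and 8.06, 5.04 and 5.28 CPM in S2-028. In S2-020 it had 0.223, 0.240 and 0.279 CPM, from 16, 20 and 20 reads, still above the floor of 3 reads under which a gene was taken as not detected. The lines did not overlap, although the first S2-028 library stood above the other two. FOXA3 was 13.03-fold lower in S2-020 than in S2-007, a log2 fold change of -3.70 ± 0.262 (edgeR, adjusted p = 4.38e-10), and 4.62 ± 0.262 higher in S2-028 than in S2-020 (edgeR, adjusted p = 2.36e-11). In S2-028 against S2-007 it was 0.95 ± 0.192 higher (edgeR, adjusted p = 0.000413). Without the first S2-028 library this log2 fold change was 0.70, and the gene was still called.

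Compared per length of transcript (CPM per kb), the makeup of the FOXA family differed between the lines. In S2-007, FOXA1 made up 68.8% ± 4.94 (SD, n = 3) of the summed FOXA level, FOXA2 11.7% ± 0.971 and FOXA3 19.5% ± 4.12. In S2-020, FOXA1 made up 81.6% ± 1.17, FOXA2 14.5% ± 1.15 and FOXA3 3.95% ± 0.643. In S2-028, FOXA2 had the largest share at 40.3% ± 2.71, with FOXA1 at 36.0% ± 1.56 and FOXA3 at 23.8% ± 4.26. S2-028 was thus the line in which FOXA1 had the smallest share, and its libraries did not overlap those of the other lines for FOXA1 or FOXA2. The summed level was 8.59 ± 1.05 CPM per kb in S2-007, 3.27 ± 0.148 in S2-020 and 13.3 ± 1.17 in S2-028.

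**Figure D3:**
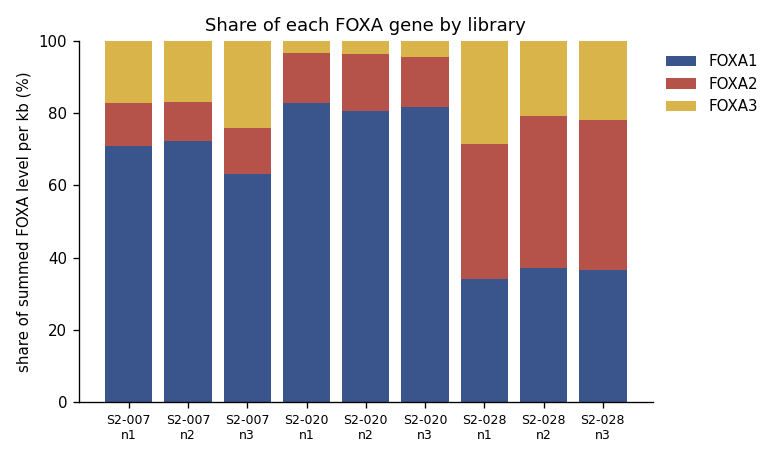
Share (%, y axis) of FOXA1, FOXA2 and FOXA3 in the summed FOXA level per kb of transcript, as stacked bars for each of the 9 libraries. FOXA1 takes 63.2 to 72.4% in S2-007, 80.4 to 82.7% in S2-020 and 34.2 to 37.0% in S2-028, where FOXA2 takes 37.2 to 42.2%.

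KLF5 (gene ID 688, chr13:73054976-73077538, plus strand) was the most abundant member in every line and stepped down from S2-007. It had 559, 556 and 594 CPM in S2-007, 309.7, 304 and 286 CPM in S2-020, and 228, 208 and 216 CPM in S2-028. Again each line kept to a range of its own. KLF5 fell 2.61-fold in S2-028 against S2-007, a log2 fold change of -1.39 ± 0.0590 (edgeR, adjusted p = 5.95e-14), and fell by 0.96 ± 0.0494 on the log2 scale in S2-020 against S2-007 (edgeR, adjusted p = 3.35e-12). Between S2-028 and S2-020 the log2 fold change was -0.46 ± 0.0528 (edgeR, adjusted p = 5.28e-07), under the fold threshold.

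Across the members, libraries of S2-028 and S2-007 did not overlap for 6 of 8, where this held for 43.3% of genes. Libraries of S2-020 and S2-007 did not overlap for 8 of 8 (48.5% of genes), and those of S2-028 and S2-020 for 7 of 8 (48.9% of genes). These shares are over all tested genes, whatever their level, and the members were chosen with earlier results known, so the counts are not a test. Some calls were near the threshold: when the test asked for a change beyond 1.5-fold, FOXA3 in S2-028 against S2-007 had an adjusted p of 0.0751 (edgeR), CDX2 had 0.394 in S2-020 against S2-007 and 0.0574 in S2-028 against S2-020 (edgeR), and GATA6 in S2-028 against S2-020 had 0.222 (edgeR). The other 13 calls held under that test.

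The order of the members per length also changed between the lines. In S2-007, KLF5 (170.1 CPM per kb) and HNF4A (49.4 ± 1.79) led, followed by GATA6 (10.4 ± 0.659) and GATA4 (9.82 ± 0.632), which did not differ beyond their spread, then CDX2 (7.72 ± 0.271), FOXA1 (5.94 ± 1.09), FOXA3 (1.65 ± 0.156) and FOXA2 (1.00 ± 0.110). In S2-020, KLF5 (89.6 ± 3.73) led, and GATA6 (15.3 ± 0.173) and GATA4 (14.8 ± 0.979) came next, again within their spread of each other. HNF4A (6.07 ± 0.431) and CDX2 (4.97 ± 0.833) followed, with a difference between their means larger than either SD, then FOXA1 (2.67 ± 0.140), FOXA2 (0.474 ± 0.0463) and FOXA3 (0.129 ± 0.0149). In S2-028, KLF5 (64.9 ± 3.12) came before GATA6 (9.59 ± 0.735) and GATA4 (6.81 ± 0.551). HNF4A (5.39 ± 0.605), FOXA2 (5.32 ± 0.107) and FOXA1 (4.76 ± 0.207) came next, with HNF4A within its spread of FOXA2, and FOXA3 (3.19 ± 0.871) and CDX2 (2.77 ± 0.338) came last. HNF4A thus moved from the second place in S2-007 to the fourth in the other lines, and FOXA2 from the last place in S2-007 to the fifth in S2-028.

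Genes that lie beside the members were examined because sublines can differ in the copy number of a segment, which was not measured here. The genes named for their place beside a member, here and above, were chosen after their values were seen, and distances are between gene midpoints. For HNF4A, the 50 nearest tested genes had a median log2 fold change of -0.31 in S2-028 and -0.23 in S2-020 against S2-007, less than HNF4A itself at -3.19 and -3.05. Of these 50, 12 and 11 were called lower (8.19% and 12.1% of all genes). R3HDML, 51.0 kb away, stood out among them at -2.78 and -2.22. For FOXA3, the 50 nearest genes had a median of 0.35 in S2-028 against S2-007. Of these, 15 were called higher (10.2% of all genes), among them IRF2BP1 (0.62) and MYPOP (0.64). In S2-020 against S2-007 the median of the 50 nearest was 0.24, opposite in sign to FOXA3, and 13 were called higher (9.57% of all genes). The medians around FOXA2, FOXA1 and the GATA genes lay between -0.17 and 0.16 in all comparisons. With the 20 nearest genes they turned in sign in S2-028 against S2-007 for GATA6 (-0.24), FOXA1 (-0.22) and GATA4 (-0.14), in S2-020 against S2-007 for FOXA2 (-0.18), and in S2-028 against S2-020 for GATA4 (-0.02) and GATA6 (-0.03). Around CDX2 the medians of the 50 nearest were -0.36, -0.01 and -0.39 in S2-028 against S2-007, S2-020 against S2-007 and S2-028 against S2-020. In the same order, 11, 4 and 19 of these 50 were called lower (8.19%, 12.1% and 10.1% of all genes).

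Genes near KLF5 were lower in S2-028 as well. The 20 nearest tested genes had a median log2 fold change of -0.66 in S2-028 against S2-007 and -0.90 in S2-028 against S2-020, but 0.00 in S2-020 against S2-007. Over the 50 nearest genes the medians were -0.15, -0.13 and 0.02. In S2-028 against S2-007, 9 of the 20 nearest and 15 of the 50 nearest were called lower (8.19% of all genes). In S2-028 against S2-020 these counts were 13 and 19 (10.1% of all genes). The 20 nearest reached 3932 and 4120 kb from KLF5 in these comparisons. The nearest genes, PIBF1, DIS3, BORA and MZT1, had log2 fold changes of -1.527, -1.194, -1.004 and -1.184 in S2-028 against S2-007, beside -1.39 for KLF5. In S2-020 against S2-007 they had -0.59, -0.04, 0.03 and 0.11, beside -0.96 for KLF5. In S2-028 against S2-020 they had -0.97, -1.18, -1.06 and -1.33, beside -0.46 for KLF5. Their part in the KLF5 difference was not tested.

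**Figure D4:**
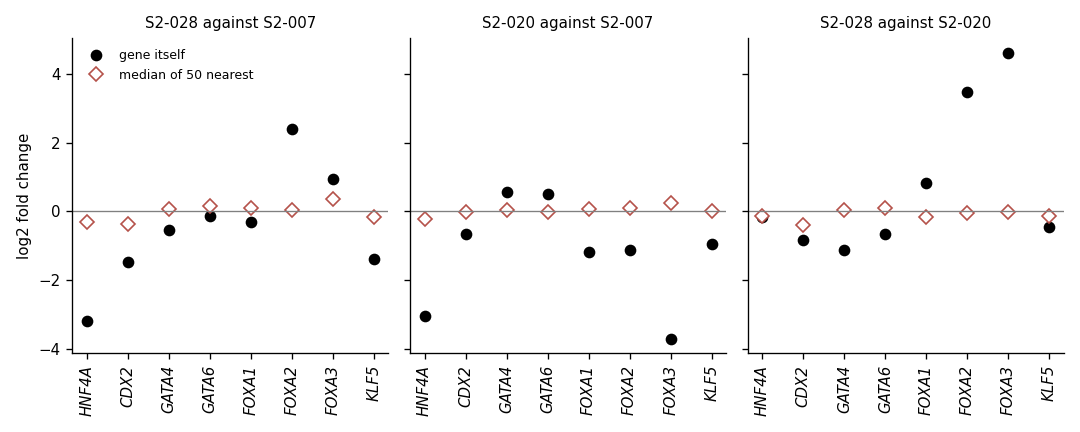
Log2 fold change (y axis) of each transcription factor (filled circles) and the median of its 50 nearest tested genes (open diamonds) in the 3 comparisons of sublines. The medians lie between -0.39 and 0.35, while the factors reach from -3.70 to 4.62.

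The profile of each member over the 9 libraries was matched to all protein-coding genes whose log2 CPM averaged 1 or more, by the root mean square difference of centered log2 CPM. Since the libraries fall into 3 lines, many genes can share such a profile, and nothing about function follows from it. HNF4A was nearest to IGSF9B (0.19 on the log2 scale), CRACD and BHLHE41, over a range of its own of 3.45. CDX2 was nearest to ITPK1 (0.11), SERINC5 and TTYH3, and KLF5 to TLR4 (0.08), STING1 and SLC41A2. GATA4 was nearest to ASPHD1 (0.07), PLEKHA4 and VWA8, and GATA6 to ENTPD6 (0.05), PHAF1 and MCUB. FOXA1 was nearest to CYB5D2 (0.11), BAZ2B and PABPC1L. FOXA2 was nearest to AIF1L (0.15), the epithelial factor GRHL2 (0.17) and JSRP1, with GRHL2 at 27.8 CPM in S2-007, 15.6 in S2-020 and 164.9 in S2-028. FOXA3 was nearest to the epithelial protease inhibitor SPINT1 (0.25), MX2 and CDH1 (0.27), the gene of E-cadherin.

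Close relatives of the members did not all follow them. Over all genes tested, 18.4% were called in S2-028 against S2-007, 21.6% in S2-020 against S2-007 and 22.2% in S2-028 against S2-020. The medians over all genes were 0.00, -0.05 and 0.02. Of 23 paralogues, 19 were tested in S2-028 against S2-007, and 3 rose and 3 fell (median 0.04). HNF4G, the relative of HNF4A in gut, fell by 2.29 on the log2 scale, and the Krüppel-like gene KLF13 fell by 2.61, while KLF2 rose by 2.34 and KLF11 by 2.17. In S2-020 against S2-007, 5 of 20 rose and 6 fell (median -0.14), with GATA3 at -2.81, KLF12 at 2.85, KLF3 at -1.09 and KLF4 at 1.39. In S2-028 against S2-020, 3 of 18 rose and 4 fell (median -0.05), with KLF13 at -1.82, GATA3 at 2.82, KLF12 at -3.50 and KLF7 at 2.34. GATA3 was thus lowest in S2-020, at 3.36 ± 0.492 CPM against 23.2 ± 2.16 in S2-007 and 23.7 ± 3.12 in S2-028.

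For the next list too, the shares of all genes called were 18.4%, 21.6% and 22.2% in the comparisons as ordered here. Of 37 other factors of gut and pancreas lineages, 34 were tested in S2-028 against S2-007, and 3 rose and 9 fell (median -0.20). The bile acid receptor NR1H4 (-5.01), CREB3L3 (-4.38), ONECUT3 (-1.72) and ELF3 (-1.06) fell, and FOXQ1 (1.93) was among those that rose. NR1H4 went from 8.67 ± 0.703 CPM in S2-007 to 0.267 ± 0.0542 in S2-028. In S2-020 against S2-007, 2 of 33 rose and 12 fell (median -0.40), with ONECUT3 at -3.71, NR1H4 at -3.44, the vitamin D receptor VDR at -2.19, EHF at -1.74, PDX1 at -1.38 and ONECUT2 at -0.93. In S2-028 against S2-020, 9 of 33 rose and 7 fell (median -0.02). VDR (2.02), FOXQ1 (1.98), ONECUT3 (1.95), EHF (1.28) and ONECUT2 (0.94) rose there, and the islet factor NKX6-1 fell (-2.61). NR1H4, PDX1 and ONECUT3 were thus lower in both lines than in S2-007, as HNF4A was, while VDR and EHF were lower in S2-020 and not called in S2-028.

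Cofactors were set beside the same shares of all genes called, 18.4%, 21.6% and 22.2% in the comparisons as ordered here. Of 15 cofactors of these factors, all tested, 1 rose and 3 fell in S2-028 against S2-007 (median -0.36). They were genes of the Groucho family, TLE1 (1.91), TLE5 (-0.72), TLE4 (-0.95) and TLE2 (-0.89). In S2-020 against S2-007, 5 rose and 1 fell (median 0.10), with TLE4 at 2.10, TLE1 at 1.28, the coactivator NCOA3 at 0.85 and TLE3 at -1.06. In S2-028 against S2-020, 1 rose and 5 fell (median -0.24), with TLE4 at -3.08, ZFPM1, a partner of GATA factors, at -1.69, PPARGC1B at -1.35 and NCOA3 at -1.05. TLE4 was highest where the GATA genes were, at 38.0 ± 0.888 CPM in S2-020 against 8.68 ± 0.534 in S2-007 and 4.48 ± 0.417 in S2-028.

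Genes of enterocytes and hepatocytes, many of them known targets of HNF4A and CDX2, were mostly lower in S2-028 and S2-020 than in S2-007 where they were called. Any part of HNF4A or CDX2 in this was not tested. The list was chosen with earlier results of these data known, so its counts are not a test. Part of the list was not detected even in S2-007, where ALB, TTR, APOC3 and AFP had no reads. Of 40 such genes, 29 were tested in S2-028 against S2-007, and 1 rose and 16 fell (median -2.12). In S2-020 against S2-007, 1 of 30 rose and 18 fell (median -1.42), and in S2-028 against S2-020, 4 of 27 rose and 6 fell (median 0.10). Over all genes tested, 18.4%, 21.6% and 22.2% were called in these comparisons. The filter on low counts was run per comparison, so a gene could pass through its reads in a single line. Such a gene, passing through S2-007 and near the floor in the other line, could only be lower there, which weighs on the counts and medians. The gut galectin LGALS4 went from 207 ± 6.10 CPM in S2-007 to 95.6 ± 17.9 in S2-020 and 0.161 ± 0.141 in S2-028, where its log2 fold change against S2-007 was -10.31. The peptide transporter SLC15A1 had 198 ± 20.6 CPM in S2-007, 50.6 ± 2.68 in S2-020 and 9.83 ± 0.710 in S2-028. The brush-border peptidase DPP4 had 142 ± 6.80 CPM in S2-007, 1.67 ± 0.466 in S2-020 and 10.6 ± 1.71 in S2-028. The liver-intestine cadherin CDH17 had 24.4 ± 5.39, 5.47 ± 1.95 and 0.159 ± 0.120 CPM in the same order. These genes were called lower in both lines, with the low line of DPP4 being S2-020 and that of the others S2-028.

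CLRN3 had no reads in any S2-028 library and 21.6 ± 1.66 CPM in S2-007, which makes it at least 448-fold lower when the floor of 3 reads per library is used. In S2-020 it had 0.909 ± 0.280 CPM, and the antigen CEACAM5 (-5.51) and SERPINA1, a protease inhibitor made by liver (-5.88), were other large falls there against S2-007. ANPEP, aminopeptidase N of the brush border, went against the list: it rose in S2-020 to 682 ± 108 CPM from 146 ± 8.22 in S2-007 (log2 fold change 2.19) and was at 0.185 ± 0.219 CPM in S2-028 (-9.63 against S2-007). TM4SF4 was the gene that rose in S2-028, to 14.2 ± 3.11 CPM from 1.08 ± 0.208 in S2-007 (3.72).

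Genes of gastric and ductal epithelium separated S2-020 from S2-028. Of 23 such genes, 17 were tested in S2-020 against S2-007, of which 11 fell and 6 were not called (median -1.85). In S2-028 against S2-020, 8 of 15 rose and 7 were not called (median 0.95), and in S2-028 against S2-007, 1 of 18 rose and 8 fell (median -0.63). Over all genes tested, 21.6%, 22.2% and 18.4% were called in these comparisons, in this order. Here too a gene could pass the filter through its reads in a single line. CEACAM6, a surface antigen of mucosa and adenocarcinoma, had 879 ± 106 CPM in S2-007, 0.645 ± 0.329 in S2-020 and 557 ± 55.7 in S2-028. AGR2, a protein-folding enzyme of mucus-making cells, had 23.5 ± 2.35, 0.0441 ± 0.0764 and 21.2 ± 4.79 CPM in the same order. TFF2, a trefoil peptide of gastric glands, had no reads in S2-020, at least 90.2-fold below S2-007, and S2-028 stood at least 55.3-fold above it. These genes were low in S2-020, the line where the FOXA genes were lowest. Any part of the FOXA genes in this was not tested.

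Other gastric genes were low in both lines. Lysozyme (LYZ) had 332 ± 37.8 CPM in S2-007, 2.57 ± 0.604 in S2-020 and 2.12 ± 0.275 in S2-028, and ANXA10 had 30.8 ± 4.97, 0.0200 ± 0.0347 and 0.0756 ± 0.0810 CPM. TSPAN8 fell from 239 ± 11.1 CPM in S2-007 to 26.4 ± 3.78 in S2-020 and 58.4 ± 7.79 in S2-028. The gastric mucin MUC5AC rose in S2-028, to 10.8 ± 2.88 CPM from 2.63 ± 0.695 in S2-007 (2.04), and had 2.74 ± 0.995 CPM in S2-020. LYZ is also made by macrophages, and CD68, a lysosomal macrophage marker, had 41.1 ± 2.52 CPM in S2-007, 7.84 ± 0.641 in S2-020 and 10.4 ± 0.849 in S2-028. The leukocyte antigen PTPRC was at 0.301 ± 0.0425, 0.186 ± 0.113 and 0.293 ± 0.0993 CPM in the same lines.

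**Figure D5:**
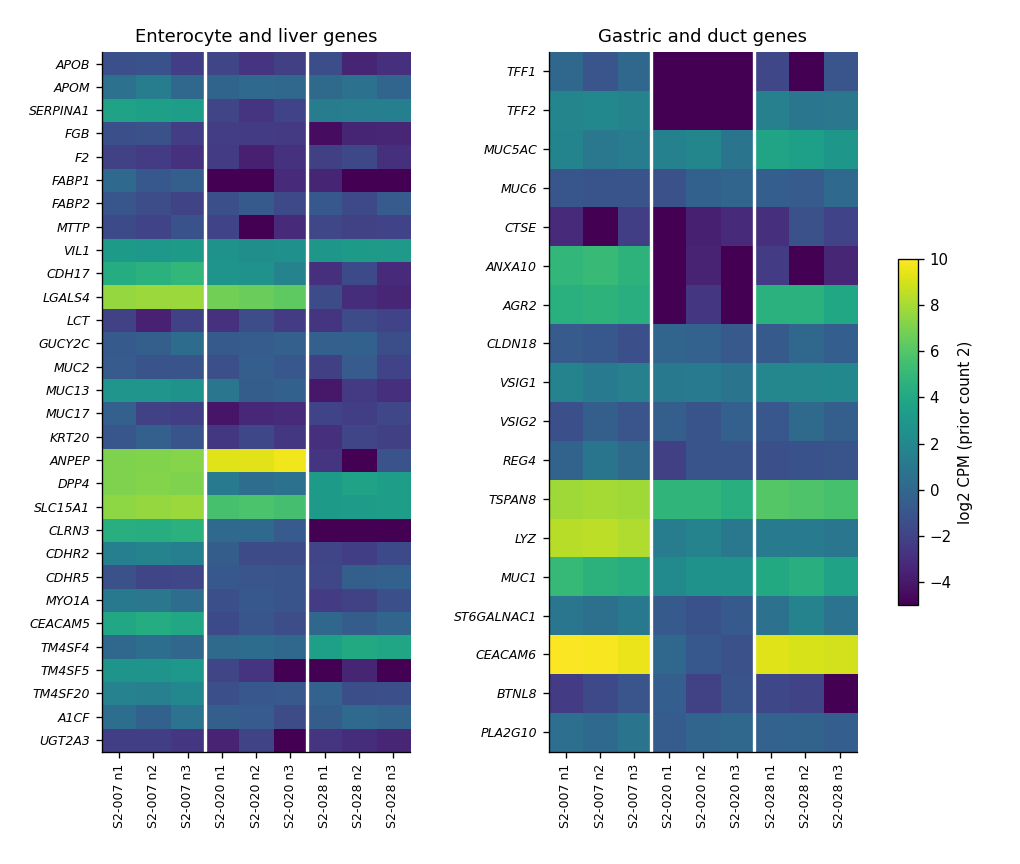
Log2 CPM (color, prior count 2) of the tested genes of the enterocyte and liver list (left) and the gastric and duct list (right) in each of the 9 libraries, with white lines between sublines. LGALS4, LYZ and SLC15A1 are bright in S2-007, ANPEP is brightest in S2-020 (682 CPM) and dark in S2-028, and CEACAM6 is dark in S2-020 (0.645 CPM).

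The summed level of the epithelial markers was lowest in S2-020, as were the FOXA genes. Of 6 (EPCAM, CDH1, KRT7, KRT8, KRT18 and KRT19), 4 rose in S2-028 against S2-007 (median 0.93), 5 fell in S2-020 against S2-007 (median -2.27) and all 6 rose in S2-028 against S2-020 (median 3.01). Over all genes tested, 18.4%, 21.6% and 22.2% were called in these comparisons. The summed level of the epithelial markers ranged from 9543 to 10077 CPM in S2-007, from 4310 to 5428 in S2-020 and from 15163 to 17770 in S2-028. CDH1 had 54.3 ± 2.43 CPM in S2-007, 4.55 ± 0.271 in S2-020 and 112 ± 7.17 in S2-028. Every epithelial marker was detected in every line, and their part in the differences of the members was not tested. The 6 acinar markers summed to at most 1.46 CPM, with PRSS1 at the floor in S2-007 and S2-020, and the 5 islet markers to at most 1.97 CPM, with SST at the floor in every line. Of the acinar markers, 2 were called higher in S2-020 against S2-007, CTRB1 (0.344 CPM against 0.00896) and CELA3A (0.868 CPM against 0.391). The CELA3A call was lost without S2-007 replicate 1 or S2-020 replicate 1 or 2 (edgeR, adjusted p = 0.0615, 0.0751 and 0.0800). Fibroblast markers summed to at most 5.75 CPM, and endothelial markers to at most 10.0 CPM. COL1A1 (2.14 CPM in S2-007, 1.32 in S2-020 and 3.63 in S2-028) was called in all 3 comparisons. Its call was lost without S2-007 replicate 2 or 3 or S2-028 replicate 2 in S2-028 against S2-007 (log2 fold change down to 0.43), and without S2-007 replicate 1 or any S2-020 library in S2-020 against S2-007 (as small as -0.33). PDGFRB was called in S2-028 against S2-020 (-1.77), a call lost without S2-020 replicate 2 (-1.28) or S2-028 replicate 3 (-1.54). Leukocyte markers summed to 40.6 to 45.3 CPM in S2-007, 9.28 to 10.4 in S2-020 and 11.4 to 12.6 in S2-028, nearly all of it CD68. CD14 was also lower in both lines than in S2-007 (-3.19 in S2-028, -3.30 in S2-020), and CD3E had no reads in S2-007 and 0.332 CPM in S2-028, at least 8.23-fold higher.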

How the data were processed

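Strand-specific poly(A) RNA-seq libraries of 3 cell lines were assigned to their line by the labels, and none was left out. The submitters' processing notes list Trimmomatic 0.39, BWA 0.7.17, SAMtools 1.12, edgeR 3.16.5 and GRCh38.p14. The authors deposited whole-number counts of reads mapped to each gene, not normalized, for 42717 genes. How reads were counted (multiple matches, strand, overlapping genes) is not given in the sources used here. Between 74.6% and 76.1% of counts from 1 to 20 were even in each library, a pattern that counting both mates of a pair gives, so floors cover counting error only. A further 2 lines name no gene and stayed out of all totals. Normalized signal, computed by the authors and deposited in 18 further columns, was not used. Total counts per library were 60328748 to 61800271 in S2-028, 71040887 to 75136834 in S2-007 and 73775302 to 86253923 in S2-020. Libraries of a line differed by more than sampling noise (chi-square per gene at least 8.41), so none was a copy of another.

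Counts were analyzed with edgeR 4.0.16 in R 4.3.3: filterByExpr (minimum count 10, minimum total 15), TMM factors, and glmQLFit with glmQLFTest on the 6 libraries of each comparison, with Benjamini-Hochberg adjustment over all genes. The study's text names a likelihood ratio test and its supplementary gene table the quasi-likelihood test, so the former was an alternative, as were DESeq2 1.42.0, RLE factors, no filter, all 9 libraries in a single fit, a replicate block, a test against a 1.5-fold change and leaving out each library. Printed CPM use TMM factors of all 9 libraries, and log2 CPM a prior count of 2. Simulated counts with changed genes were used to test the procedure: for S2-028 against S2-007, with 25875 genes, 99 of 99 genes changed by a log2 fold of 2 and 81 of 101 changed by a log2 fold of 1 were called, with 7 unchanged genes called.

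Members and gene lists were chosen with earlier results of these data known. Named genes are all members; of each other list at most 6 called genes with the smallest adjusted p per comparison (4 for paralogues and cofactors); any marker gene; and the 3 genes most like each member. A further gene that this rule names is not reported here. Gene IDs were matched to RefSeq on GRCh38.p14 (42539, 99.6%), from which coordinates and promoters were taken. Levels per length use the MANE transcript.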

Additional observations from a re-analysis of the deposited data

How the results depend on the processing

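No member changed direction under any alternative, and 302 recomputed log2 fold changes of members kept their side of the threshold, 5 passed it and 5 lost it. GATA4 in S2-020 against S2-007 passed it with DESeq2, RLE factors or all 9 libraries in a single fit (0.59 each), without S2-007 replicate 1 (0.63) and without S2-020 replicate 3 (0.60). The calls lost were those of CDX2, FOXA3 and GATA6 given in the report. Leaving out each library, the number of members called was 5 in S2-028 against S2-007, 6 to 7 in S2-020 against S2-007 and 6 in S2-028 against S2-020. A test against a 1.5-fold change called fewer genes by its construction: 2977, 3639 and 3638 genes in these comparisons in place of 4858, 5769 and 5788, and 5 genes of the gastric and duct list in S2-028 against S2-007 in place of 9. With 20 neighbors in place of 50, 14 of 24 medians moved by more than the spread between libraries, and the cause was not tested. Replicate numbers did not pair libraries, since deviations of same-numbered libraries correlated between -0.0226 and 0.00626 over 9 pairs and 5 of 18 comparisons put a library nearest to its own number. With the replicate number as a block, the members called were 5, 6 and 6, as without it. Depth limits the members most for FOXA3 in S2-020, which rests on 16 to 20 reads per library.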
